A study of Mus musculus with 5 samples.

Results

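The genes described here are 44 genes of energy metabolism: glucose and lactate transporters, the enzymes of glycolysis and their isozymes, the enzymes that make and control fructose 2,6-bisphosphate, regulators and a subunit of pyruvate dehydrogenase, glycogen enzymes, creatine kinases, and 2 enzymes of adenylate metabolism. They were taken by symbol from a table of 54699 genes measured by RNA sequencing in B16F10, a pigmented cell line derived from a mouse melanoma. All 44 symbols were found. Aldoa stands in the table under 2 identifiers, and ENSMUSG00000030695, which holds nearly all of its reads, was used. The other identifier had an FPKM of 0.135 to 1.23. Of the 44 genes, 11 are called muscle isozymes here because skeletal muscle is the tissue in which their product is the characteristic form: Slc2a4, Pfkm, Pgam2, Eno3, Pygm, Phka1, Phkg1, Ckm, Ckmt2, Ak1 and Ampd1. The other 33 are forms found in most cells or in other tissues.

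The study made cells with 3 alterations and 2 controls, and sequenced 1 library of each. Mouse Myod1, a transcription factor that drives skeletal muscle differentiation, or mouse Pparg, a nuclear receptor that drives fat cell differentiation, was expressed from a lentivirus, and the control received lentivirus with the empty expression vector. These 3 cultures were grown until day 8. In a second arm Setdb1, a histone H3 lysine 9 methyltransferase, was lowered by a short hairpin RNA delivered by lentivirus, and its control received the empty knockdown vector. These 2 cultures were grown until day 7. All cells are otherwise wild-type B16F10 in medium with serum. The promoter of the expression vector, the hairpin's sequence and the number of clones or infections behind a library are not given in the sources used here.

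Glycolysis turns glucose into pyruvate in the cytosol and yields ATP without oxygen, and lactate dehydrogenase and the monocarboxylate transporters carry the carbon on to lactate and out of the cell. Many of its steps are catalysed by isozymes from separate genes, and muscle fibres replace several forms that other cells use by their own: phosphofructokinase Pfkm, phosphoglycerate mutase Pgam2, enolase Eno3 and glycogen phosphorylase Pygm. Muscle also buffers ATP with creatine phosphate, made by the cytosolic creatine kinase Ckm and the mitochondrial form Ckmt2. Tumour cells in culture commonly run glycolysis at a high rate, and several glycolytic genes are known targets of hypoxia-inducible factors (HIF).

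Levels are FPKM, a read count scaled to the length of the gene and to a number for the library, so levels of different genes are compared per length. The libraries held between 16214802 and 18300670 reads on genes, recovered from the deposited values. The altered genes followed the labels: Myod1 was at 260.1 FPKM in its library and at 0 in the other 4, Pparg was at 44.4 FPKM in its library and at 0 elsewhere, and Setdb1 was at 0.867 FPKM after knockdown against 9.82 in the empty knockdown vector library and 8.41 to 15.2 in the others. Markers of the pigment cell lineage were present in all 5 libraries, with a summed FPKM over 10 genes of 3332 with Myod1, 2320 with Pparg, 9147 after Setdb1 knockdown, and 7848 and 8585 in the empty expression and empty knockdown vector libraries. Of 12 skeletal muscle markers, 11 reached an FPKM of 1 in the Myod1 library and 2, Mylpf and Des, in each of the other 4. Their summed FPKM was 31336 with Myod1 and 11 to 32.6 elsewhere, and Myog was at 0 in those 4 libraries. Of 7 heart muscle markers, 3 reached an FPKM of 1 in any library: Gata4, Myh6 and Nppb. Gata4 and Myh6 were higher with Myod1 against both controls, at 3.21 and 3.52 FPKM against at most 0.0182 elsewhere, beside 11.9% of all genes. Both reached an FPKM of 1 only with Myod1, so they had to stand higher there. Nppb was past 2-fold lower with Myod1 than with the empty expression vector and within 2-fold of the empty knockdown vector. Nkx2-5, Tbx5 and Hand2 were at 0 with Myod1. The summed FPKM of the 7 was 18.6 with Myod1 and at most 26.3 elsewhere, most of it Nppb, and the part of heart forms in the results was not tested. Of 9 fat cell markers, 5 reached an FPKM of 1 in the Pparg library, with a sum of 320 against at most 2.79 in any other. In RNA from whole cultures, fewer cells of a type and less RNA per cell cannot be told apart.

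Of the 44 genes, 41 reached an FPKM of 1 in at least 1 library and were compared, as were 12842 genes of the whole table. Phkg1, Pfkfb1 and Ckmt1 stayed below it, with 0.631 FPKM as the highest value of the 3. Ckm, Ckmt2 and Ampd1 passed only through the Myod1 library, Pygl only through the empty expression vector library and Pfkfb2 only through the Setdb1 knockdown library, so these 5 had to stand higher there. A gene is counted as higher or lower when log2((FPKM + 1)/(FPKM + 1)) of 2 libraries is at least 1 in size, which is 2-fold. Folds in the text are ratios of the FPKM themselves, with a 95% interval from the read counts. These intervals cover counting error only, and with 1 library per group differences between groups have no replicate to be checked against, and p-values are not given.

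The 2 control libraries differed from each other in these genes, so this comparison comes first. In the empty knockdown vector library 11 of the 41 genes were lower than in the empty expression vector library, where 1.44% of all genes compared were, and 0 were higher, against 1.23% of all genes. The direction was shared more widely: 32 of 41 genes were higher in the empty expression vector library and 8 lower, and the median log2 ratio was -0.46, against 0.00 for all genes. Over the 31 genes other than muscle isozymes the median was -0.84, and over the 10 muscle isozymes it was -0.07, with 6 of the 10 below 0. Ckm, Ckmt2 and Ampd1 had 0 to 5 reads in each control, and Slc2a4 and Pygm lay under 2 FPKM in both, so the added 1 holds these ratios near 0 and the median of -0.07 does not show that the muscle isozymes were alike in the controls. Pfkm, which both controls expressed, was at 35.7 FPKM with the empty expression vector and 18.0 with the empty knockdown vector.

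Slc16a3, the monocarboxylate transporter that exports lactate from strongly glycolytic cells, had the widest gap, with 78.7 FPKM in the empty expression vector library and 11.1 in the empty knockdown vector library, 7.11-fold lower (95% interval 6.65 to 7.61). Pdk1, a kinase that inhibits pyruvate dehydrogenase, was at 14.0 and 2.34 FPKM, 5.99-fold lower (5.30 to 6.79). Pfkl, the liver form of phosphofructokinase, was at 117 and 26.6 FPKM, 4.40-fold lower (4.23 to 4.59). The remaining 8 genes past 2-fold were the glucose transporter Slc2a1, the hexokinases Hk1 and Hk2, the platelet phosphofructokinase Pfkp, the aldolase Aldoc, the triosephosphate isomerase Tpi1, the lactate dehydrogenase Ldha and the glycogen synthase Gys1, between 2.11-fold and 3.12-fold lower. Members at the limit lay close together: the enolase Eno2 was 2.12-fold lower by FPKM and the pyruvate kinase Pkm 1.98-fold lower, and neither passed with the added 1. Gapdh went the other way, with 55.4 FPKM in the empty expression vector library and 86.1 in the empty knockdown vector library, 1.56-fold higher (1.49 to 1.62).

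A list of 20 HIF target genes that are not glycolytic, among them Vegfa, Bnip3 and Car9, showed the same direction between the controls. Of the 18 compared, 12 were lower in the empty knockdown vector library, beside 1.44% of all genes, and 0 were higher, beside 1.23%. All 18 had a ratio below 0, with a median of -1.21, against -0.003 for all genes. Vegfa, a growth factor for blood vessels, was at 23.6 FPKM in the empty expression vector library and 4.33 in the empty knockdown vector library, and Ero1l, an oxidase of the endoplasmic reticulum, at 102 and 22.5. Hif1a RNA itself was at 18.1 and 22.9 FPKM, the reverse order. HIF is controlled largely through the stability of its protein, which RNA does not show, and whether HIF differed between the controls was not tested. The 2 controls differ in vector and in day of harvest, and these cannot be told apart. Each alteration is therefore given below against its own control and against the other.

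**Figure D1:**
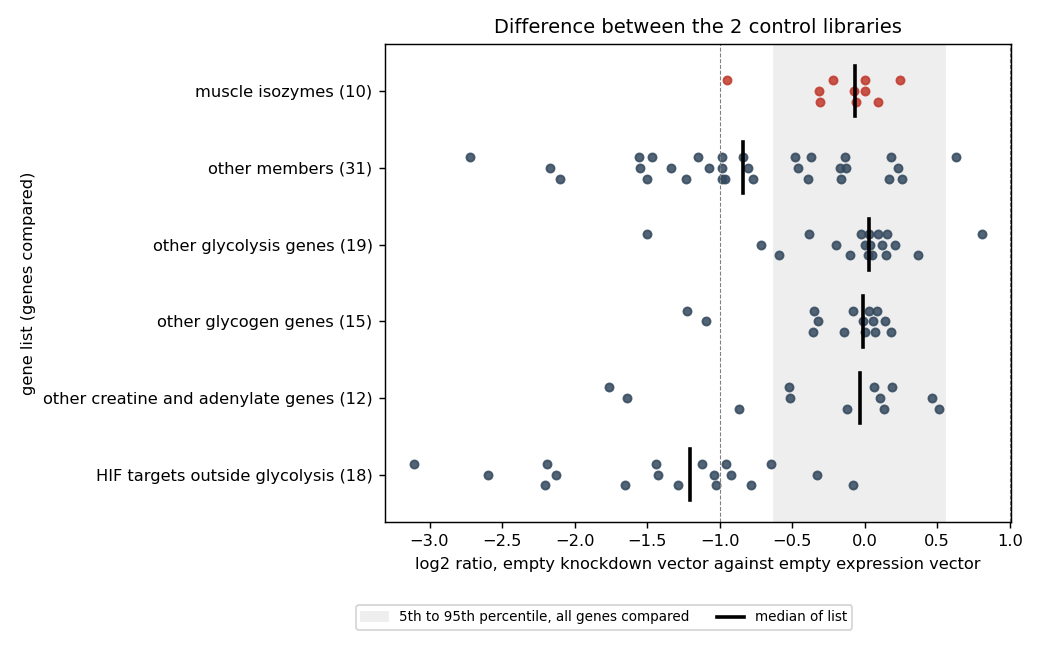
Log2 ratio of FPKM + 1 between the empty knockdown vector and the empty expression vector library (x axis) for genes of 6 lists (y axis, number compared in brackets). Points are genes, black bars list medians and the grey band the 5th to 95th percentile of all 12842 genes; the other members and the HIF targets lie to the left, with medians of -0.84 and -1.21, and the muscle isozymes, several of them near 0 FPKM in both controls, lie around -0.07.

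With Myod1, 13 of 41 genes were higher than in the empty expression vector library, where 14% of all genes compared were, and 6 were lower, against 7.55% of all genes. Set against the empty knockdown vector library the counts were 18 higher (15.1% of all genes) and 1 lower (7.51%). Against both controls 12 were higher and 1 was lower, beside 11.9% and 4.42% of all genes. Those 12 are the muscle isozymes Slc2a4, Pfkm, Pgam2, Eno3, Pygm, Ckm, Ckmt2, Ak1 and Ampd1, with Aldoa, Gys1 and Pdk2. Of the 10 muscle isozymes compared 9 were thus higher against both controls, and all 10 had their highest level in the Myod1 library. Hk2, Ldha and Slc16a3, which muscle shares with other tissues, are not in that list, and with Myod1 they were at 54.2, 958 and 34.8 FPKM, below the empty expression vector (75.5, 1191 and 78.7) and above the empty knockdown vector (26.1, 565 and 11.1). The median log2 ratio of the 10 was 4.15 against the empty expression vector and 4.22 against the empty knockdown vector, with 0.02 for all genes in both. Without Ckm, Ckmt2 and Ampd1, which passed the filter only through this library, 6 of 7 remained. Over all 41 genes the median was -0.21 against the empty expression vector, with 23 genes below 0, and 0.84 against the empty knockdown vector, with 10 below, and over the 31 genes outside the muscle isozymes it was -0.47 and 0.69. The list of muscle isozymes holds genes already known as muscle forms and was chosen with earlier results of these data known, so its count describes these libraries.

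The split between higher and lower depends on the scaling between libraries. Scaling to the FPKM column sum, which is largest in the Myod1 library, gave 11 higher and 12 lower in place of 13 and 6. Scaling to the 75th percentile gave 12 and 8. Of all 12842 genes, 1238 were higher and 1907 lower with the column sum, and 1489 and 1334 with the 75th percentile, in place of 1798 and 970. The median of all genes moved by -0.28 and -0.12 under these scalings, and among all genes counted as changed the share that was higher went from 65.0% to 39.4% and 52.7%. The 9 muscle isozymes, Pdk2 and Gys1 were past 2-fold under each scaling, whereas Aldoa was at 0.69 and 0.90 on the log2 scale and Gapdh at 0.96 with the column sum.

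The 4 muscle isozymes with the highest FPKM in the Myod1 library for which RefSeq gives a start site are shown with the 250 bases before that start (build GRCm38.p6, strand of the gene, 5′ to 3′). MyoD family proteins bind E-boxes, written CANNTG, which read as E-boxes on both strands, and every E-box in the 4 windows is in capitals.
Ckm, creatine kinase of muscle, chr7:19410844-19411093, plus strand: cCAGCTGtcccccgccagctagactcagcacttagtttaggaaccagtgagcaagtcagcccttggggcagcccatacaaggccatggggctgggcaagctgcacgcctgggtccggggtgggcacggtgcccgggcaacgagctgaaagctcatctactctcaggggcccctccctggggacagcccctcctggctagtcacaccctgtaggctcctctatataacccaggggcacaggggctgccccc
Pgam2, phosphoglycerate mutase of muscle, chr11:5803797-5804046, minus strand: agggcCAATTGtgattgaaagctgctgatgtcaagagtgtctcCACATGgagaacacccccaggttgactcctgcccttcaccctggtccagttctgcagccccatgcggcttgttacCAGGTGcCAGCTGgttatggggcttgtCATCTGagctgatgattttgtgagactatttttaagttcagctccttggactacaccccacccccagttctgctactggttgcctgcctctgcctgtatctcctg
Eno3, enolase of muscle, chr11:70656926-70657175, plus strand: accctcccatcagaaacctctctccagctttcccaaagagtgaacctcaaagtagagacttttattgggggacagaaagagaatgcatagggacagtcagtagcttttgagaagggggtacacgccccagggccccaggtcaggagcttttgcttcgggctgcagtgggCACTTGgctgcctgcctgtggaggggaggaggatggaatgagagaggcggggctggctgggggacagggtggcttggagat
Pygm, glycogen phosphorylase of muscle, chr19:6384158-6384407, plus strand: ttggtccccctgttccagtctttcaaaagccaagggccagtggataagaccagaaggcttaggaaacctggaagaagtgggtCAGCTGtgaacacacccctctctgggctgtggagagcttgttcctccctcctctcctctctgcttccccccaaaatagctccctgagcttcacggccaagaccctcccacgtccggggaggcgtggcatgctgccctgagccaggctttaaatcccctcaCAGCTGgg
The Ckm window holds 1 E-box, CAGCTG, 249 bases before the start, the Pgam2 window 5 between 245 and 105 bases before it, the Eno3 window 1, CACTTG, at 81 bases, and the Pygm window 2, both CAGCTG, at 168 and 8 bases. In the deposited table Ckm spans chr7:19404776-19422841, so its window lies inside the listed gene.

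E-boxes are common, so the windows were read against all others of the same length. RefSeq windows were found for 41 of the 44 genes, including 9 of the 11 muscle isozymes. None was found for Ampd1, Slc2a3 and Slc2a4. A gene with several starts has several windows. CANNTG stood in 14 of 15 windows of muscle isozymes (93.3%), in 59.2% of the 49 windows of the other members and in 66.2% of all 32851 windows. The narrower form CAGCTG stood in 7 of the 15 (46.7%), in 12.2% of those of the other members and in 13.0% of all. CACCTG, read on both strands and so also as CAGGTG, stood in 6 of the 15 (40%), against 6.12% and 17.2%. Both narrower forms are cases of CANNTG and the windows of 1 gene overlap in part, so these shares are not independent of each other. A match describes the letters of the window and does not show binding.

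Among the glucose transporters, Slc2a4 encodes the insulin-responsive GLUT4 of muscle and fat. Its RNA level was 45.5 FPKM with Myod1, 2.34 with Pparg, 1.80 with the empty expression vector, 1.96 after Setdb1 knockdown and 1.65 with the empty knockdown vector. The Myod1 library stood apart and the other 4 lay close together. Against the empty expression vector it was 25.4-fold higher with Myod1 (20.8 to 31.2), and against the empty knockdown vector 27.6-fold (22.5 to 34.2). The widely expressed Slc2a1 (GLUT1) was at 33.6 FPKM with Myod1, between the 53.2 and 20.5 FPKM of the 2 controls, and Slc2a3 (GLUT3) was low in every library, at 2.98 to 5.49 FPKM.

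Pfkm, the muscle form of phosphofructokinase, which commits sugar to glycolysis, was at 217 FPKM with Myod1, 30.4 with Pparg, 35.7 with the empty expression vector, 23.7 after Setdb1 knockdown and 18.0 with the empty knockdown vector. The Myod1 value was 6.08-fold (5.79 to 6.38) and 12.1-fold (11.3 to 12.9) above the 2 controls. Pfkl and Pfkp, its liver and platelet forms, did not follow. They were at 51.6 and 18.8 FPKM with Myod1, below the empty expression vector (117 and 34.8) and above the empty knockdown vector (26.6 and 11.1).

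Phosphoglycerate mutase has a muscle form, Pgam2, and a general form, Pgam1. Pgam2 was at 983 FPKM with Myod1, 5.90 with Pparg, 4.96 with the empty expression vector, 16.3 after Setdb1 knockdown and 6.05 with the empty knockdown vector. This was 198-fold (156 to 256) above the empty expression vector and 162-fold (131 to 203) above the empty knockdown vector. Pgam1, the form of most cells, was at 338 FPKM with Myod1 against 745 and 533 in the controls, 2.20-fold lower (2.15 to 2.26) than with the empty expression vector and 1.58-fold lower (1.54 to 1.62) than with the empty knockdown vector. The 2 isozymes thus moved in opposite directions, and only the rise of Pgam2 passed 2-fold against both controls.

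Eno3, the muscle enolase, was at 1348 FPKM with Myod1, 34.0 with Pparg, 41.1 with the empty expression vector, 20.9 after Setdb1 knockdown and 32.9 with the empty knockdown vector. Its folds were 32.8 (31.0 to 34.8) and 41 (38.4 to 43.7). Eno2, the enolase of neurons, was at 2.72 FPKM with Myod1, the lowest of the 5 libraries, and was the 1 gene of the 41 lower against both controls, 5.51-fold (4.74 to 6.43) and 2.60-fold (2.21 to 3.07). Of 8 neuron markers, Tubb3 carried nearly all of the summed level in every library, at 36.1 to 202 FPKM, and its part in the Eno2 values was not tested. Eno1, the form of most cells, was at 1269 FPKM with Myod1, within 2-fold of both controls.

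Of the 6 glycogen genes compared, Pygm, which breaks glycogen down, and Gys1, which builds it, were past 2-fold higher with Myod1 against both controls, beside 11.9% of all genes, and the other 4 stayed within 2-fold. Pygm, the phosphorylase whose loss causes McArdle disease, was at 352 FPKM with Myod1, 1.44 with Pparg, 1.62 with the empty expression vector, 0.269 after Setdb1 knockdown and 1.25 with the empty knockdown vector. It was 218-fold (176 to 273) and 283-fold (223 to 365) above the controls. The brain form Pygb was at 29.4 FPKM with Myod1 against 45.6 and 32.9, and the liver form Pygl was at 0.572 to 2.06 FPKM in all 5 libraries. Phka1, the muscle subunit of phosphorylase kinase, which switches phosphorylase on, was the muscle isozyme that stayed within 2-fold, at 7.87 FPKM with Myod1 against 5.17 and 3.97, 1.52-fold (1.36 to 1.70) and 1.99-fold (1.76 to 2.24) higher. Gys1, which builds glycogen in muscle and most other tissues, was at 162 FPKM with Myod1, 51.9 with Pparg, 45.1 with the empty expression vector, 19.1 after Setdb1 knockdown and 14.8 with the empty knockdown vector, and its folds with Myod1 were 3.59 (3.46 to 3.73) and 11 (10.3 to 11.7). Gbe1, the branching enzyme, was at 6.05 FPKM with Myod1, the lowest of the 5 libraries, and at 7.62 to 12.2 in the others.

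Creatine kinase gained its muscle forms with Myod1. Ckm had 40936 reads with Myod1 (894 FPKM), 2 reads with Pparg and 0 in the other 3 libraries. Against 3 reads, the limit that a count of 0 allows, it was at least 14177-fold higher than with the empty expression vector and at least 14511-fold higher than with the empty knockdown vector. Ckmt2, the mitochondrial form of striated muscle, had 439 reads with Myod1 (18.8 FPKM), 1 read with the empty expression vector and 0 in the other 3 libraries. It was 456-fold above that 1 read, with an interval of 81.4 to 18055, and at least 156-fold higher than with the empty knockdown vector. Ckb, the cytosolic form of brain and many other cells, was present throughout, at 112 FPKM with Myod1, 191 with Pparg, 172 with the empty expression vector, 73.5 after Setdb1 knockdown and 131 with the empty knockdown vector. With Myod1 it stayed within 2-fold of both controls. Ckmt1, the widely expressed mitochondrial form, had at most 2 reads in any library.

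Ak1, the adenylate kinase that is abundant in muscle, was at 305 FPKM with Myod1, 49.8 with Pparg, 20.5 with the empty expression vector, 34.1 after Setdb1 knockdown and 20.6 with the empty knockdown vector. It was 14.8-fold higher with Myod1 against each control (13.9 to 15.9 and 13.8 to 15.9). Ampd1, the AMP deaminase of muscle, had 280 reads with Myod1 (5.02 FPKM) and between 1 and 6 reads in the others. Its ratio was 291 against 1 read, with an interval of 51.8 to 11530.5, and 59.6 (25.2 to 185) against 5 reads with the empty knockdown vector.

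**Figure D2:**
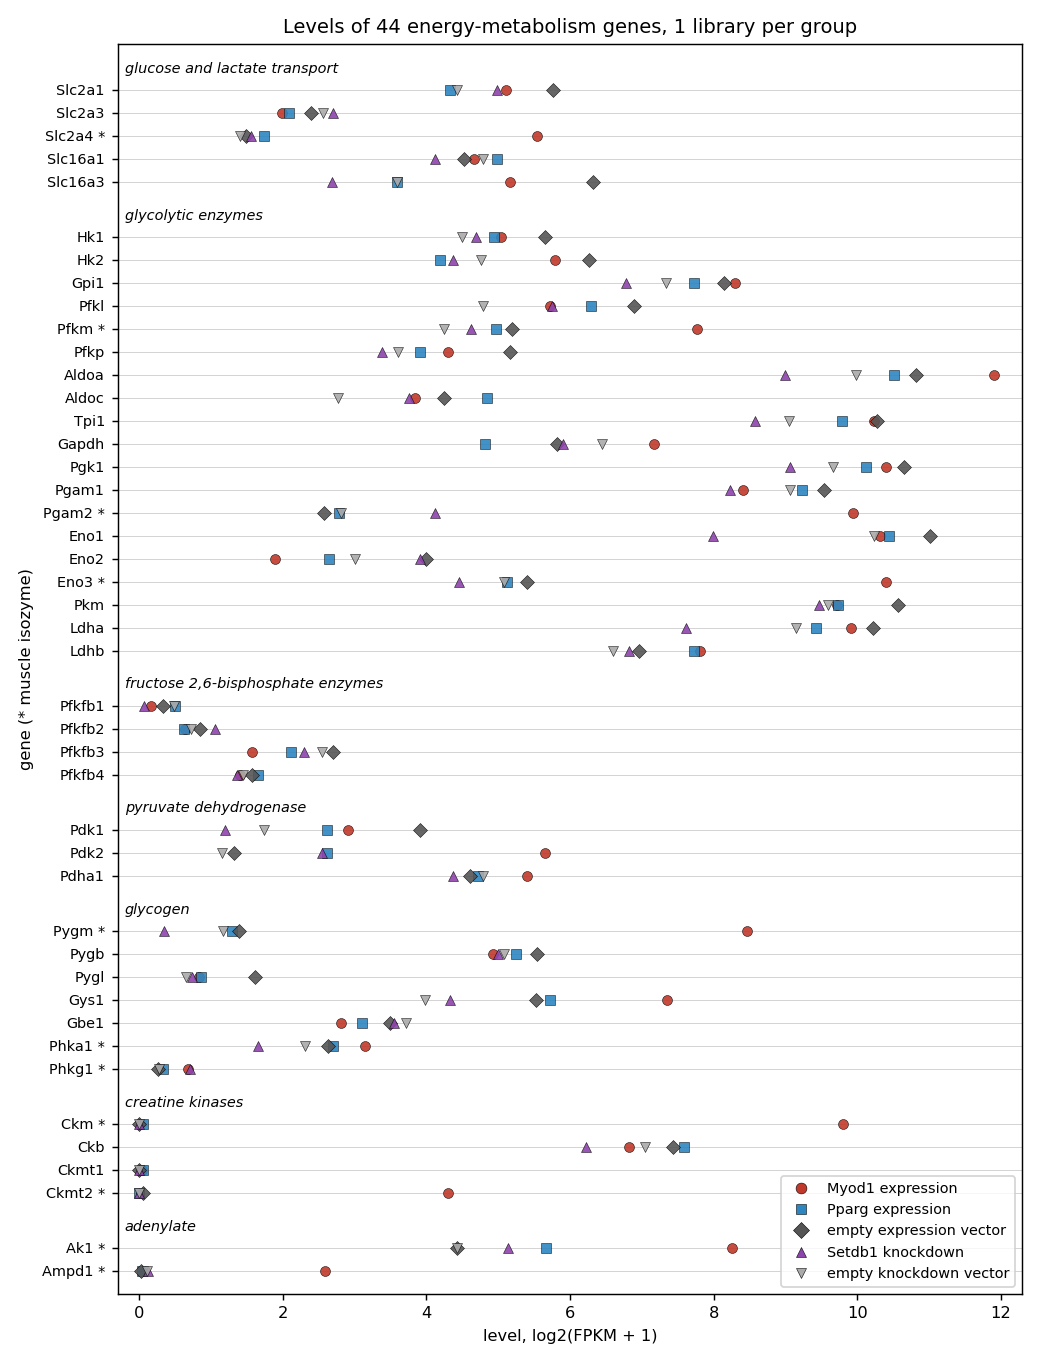
Level of each of the 44 genes (y axis, grouped by role, muscle isozymes marked with an asterisk) as log2(FPKM + 1) (x axis) in each of the 5 libraries, 1 symbol per library. The Myod1 library lies far to the right for Slc2a4, Pfkm, Pgam2, Eno3, Pygm, Ckm, Ckmt2, Ak1 and Ampd1, while the abundant enzymes Aldoa, Eno1, Pgk1, Pkm, Tpi1 and Ldha are high in every library.

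Shares of an isozyme within its family do not depend on how libraries were scaled to each other. Pgam2 made up 74.4% of phosphoglycerate mutase FPKM with Myod1 (73.9% to 74.9%) and 0.661% and 1.12% in the 2 controls. For Pygm among the glycogen phosphorylases the share was 92.1% (91.8% to 92.4%) against 3.28% and 3.59%, and for Ckm of Ckm and Ckb it was 88.9% (88.6% to 89.1%), with 0 reads in both controls, which allow up to 0.0366% and 0.0471%. The muscle form was the larger part in these 3 families. For Pfkm the share was 75.5% with Myod1 against 19.0% and 32.3%, and for Slc2a4 of the 3 glucose transporters 55.5% against 3.03% and 6.10%. Eno3 made up 51.4% of enolase FPKM with Myod1 (51.1% to 51.7%) against 1.94% and 2.64% in the controls, so with Myod1, where Eno1 was at 1269 FPKM, enolase was divided almost evenly. Summed over its isozymes, phosphoglycerate mutase was at 1321 FPKM with Myod1 against 750.1 and 539 in the controls, phosphofructokinase at 287 against 188 and 55.8, glycogen phosphorylase at 383 against 49.2 and 34.7, and cytosolic creatine kinase at 1006 against 172 and 131. Shares and sums rest on the division by gene length. As shares of reads not divided by length, the Myod1 values were 57.1% for Pgam2, 54.9% for Pfkm, 25.5% for Eno3, 88.5% for Pygm and 53.2% for Slc2a4, each still above both controls by the same measure. In summed reads, not scaled between libraries of 18300670 and 16741147 reads, phosphofructokinase had 20771 with Myod1 against 22352 with the empty expression vector, and phosphoglycerate mutase 22710 against 22356.

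Reads of close copies could move between a gene and its copies, and the treatment of reads that match several genes is not given in the sources used here. With the copies Eno1b, Pgam1-ps2 and Ldha-ps2 added to their families, the Myod1 share of Eno3 was 50.1% and that of Pgam2 73.7%.

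**Figure D3:**
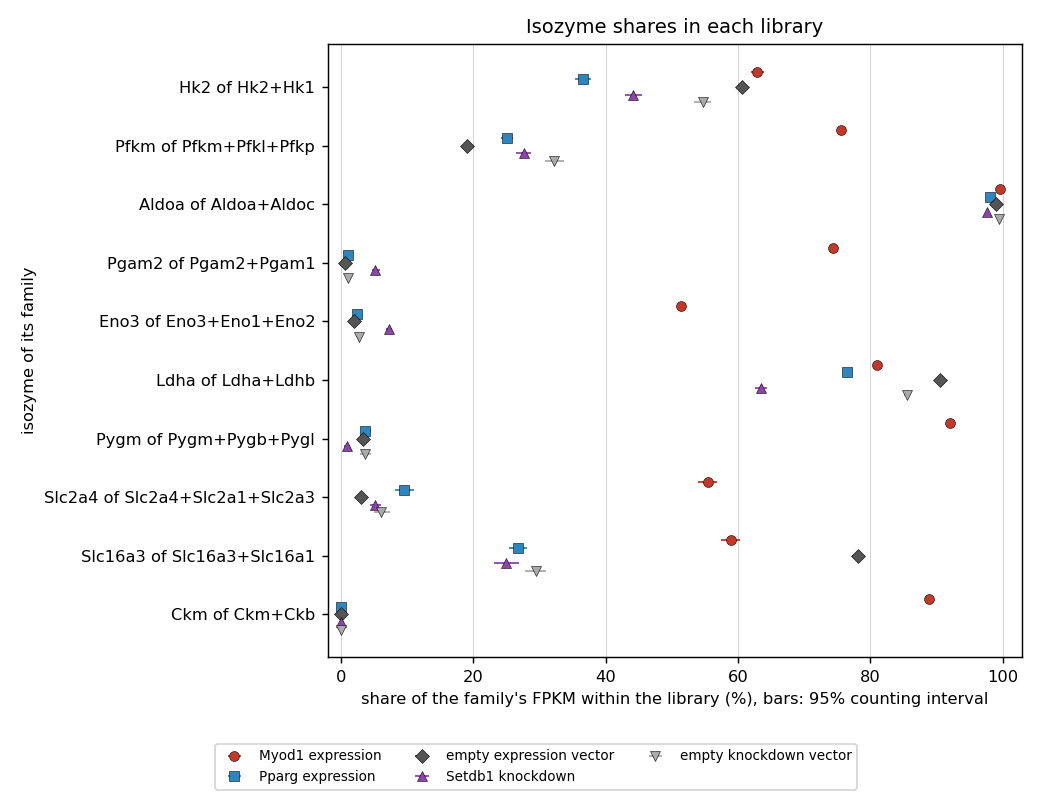
Share of 1 isozyme in the summed FPKM of its family (x axis, percent) for 10 families (y axis) in each library, with bars for the 95% counting interval, most of them narrower than the symbol. The Myod1 library is far to the right of the other 4 for Pfkm, Pgam2, Eno3, Pygm, Slc2a4 and Ckm; for Ldha and Slc16a3 the empty expression vector library is the highest, at 90.6% and 78.1%.

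Several glycolytic enzymes without a muscle form listed here, Aldoa, Tpi1, Pgk1, Pkm and Ldha among them, were high in every library, whereas Aldoc, Hk1, Hk2 and Gapdh were lower. Aldoa, which is the aldolase of muscle and of most other cells, was the highest of the 44 genes with Myod1, at 3832 FPKM, against 1453 with Pparg, 1806 with the empty expression vector, 509.6 after Setdb1 knockdown and 1011 with the empty knockdown vector. It was 2.12-fold (2.10 to 2.14) and 3.79-fold (3.75 to 3.83) above the controls, and the first of these is lost under the other scalings given above. Pgk1, Tpi1, Ldha, Gpi1 and Pkm were each within 2-fold of the empty expression vector, at 1356, 1202, 958, 315 and 837 FPKM with Myod1 and 1607, 1243, 1191, 283 and 1522 in that control. In the empty knockdown vector library they were at 811, 529, 565, 161 and 769 FPKM, and against it Tpi1 was past the limit with Myod1, 2.27-fold higher (2.24 to 2.31), and the other 4 were not. Ldhb, the lactate dehydrogenase subunit of heart and other oxidative tissues, was at 224 FPKM with Myod1 against 124 and 95.5, 1.81-fold (1.73 to 1.89) and 2.35-fold (2.24 to 2.46) higher. Summed over 19 glycolytic enzymes the level was 13195 FPKM with Myod1 and 11025 with the empty expression vector, a log2 ratio of 0.26 that turned to -0.13 when libraries were divided by their FPKM sum. With the empty knockdown vector the sum was 5921 FPKM, so the Myod1 sum was 1.20 times that of the first control and 2.23 times that of the second.

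The 6 genes lower with Myod1 than with the empty expression vector were Slc16a3, Pfkl, Pgam1, Eno2, Pfkfb3 and Pdk1. Pfkfb3, which makes fructose 2,6-bisphosphate, an activator of phosphofructokinase, was at 1.98 FPKM with Myod1 against 5.53 and 4.84, 2.80-fold (2.41 to 3.26) and 2.45-fold (2.10 to 2.86) lower, the second just short of the limit with the added 1. For 3 of the 6 the direction turned with the control. Slc16a3 at 34.8 FPKM was 2.26-fold lower (2.17 to 2.36) than the empty expression vector and 3.14-fold higher (2.92 to 3.38) than the empty knockdown vector. Pdk1 at 6.49 FPKM was 2.16-fold lower (1.99 to 2.36) and 2.77-fold higher (2.42 to 3.17). Pfkl was 2.27-fold lower (2.20 to 2.34) and 1.94-fold higher (1.85 to 2.03). These are also the 3 genes with the widest gaps between the controls.

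**Figure D4:**
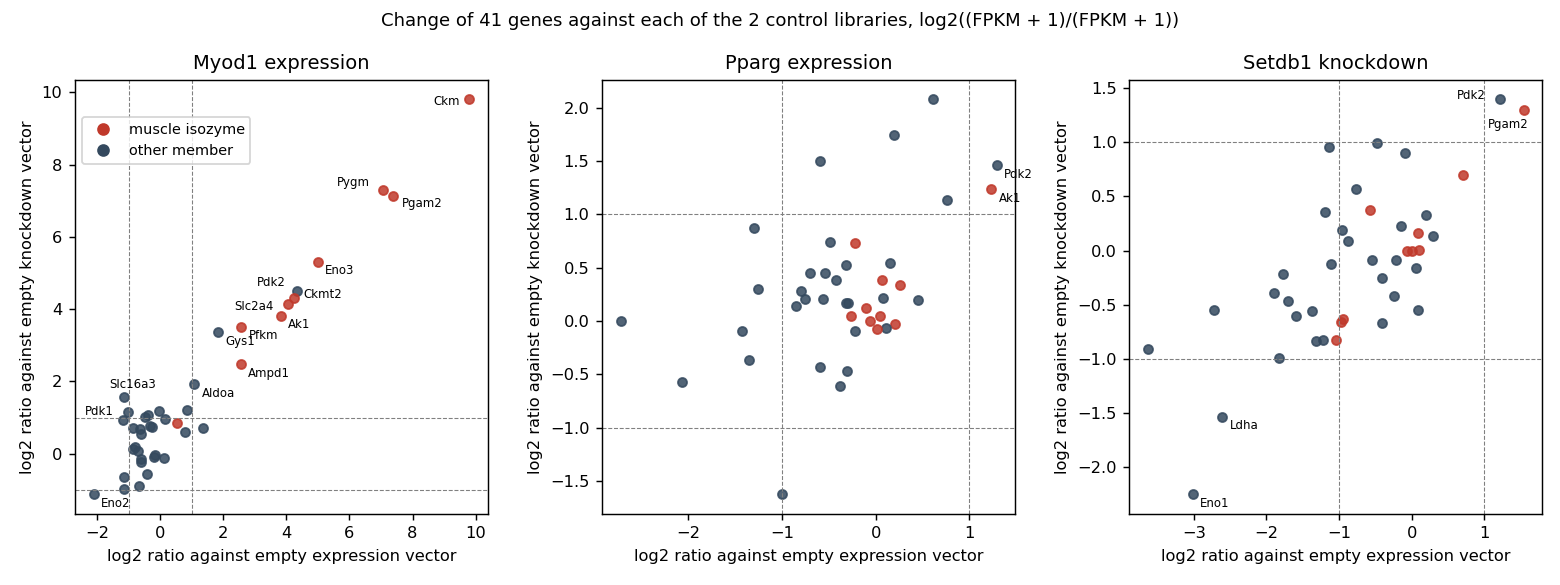
Log2 ratio of FPKM + 1 for the 41 genes compared against the empty expression vector (x axis) and against the empty knockdown vector (y axis), 1 panel per alteration, with dashed lines at 2-fold. Names mark genes past 2-fold against both: 12 higher, Eno2 lower and 2 (Slc16a3 and Pdk1) in opposite directions with Myod1, Pdk2 and Ak1 with Pparg, and Pdk2, Pgam2, Eno1 and Ldha after Setdb1 knockdown.

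Oxidation of pyruvate by pyruvate dehydrogenase in mitochondria is held back by the pyruvate dehydrogenase kinases, and Pdk2 is the form of many tissues, muscle included. Pdk2 was at 49.5 FPKM with Myod1, 5.15 with Pparg, 4.85 after Setdb1 knockdown, 1.51 with the empty expression vector and 1.23 with the empty knockdown vector. It was higher in all 3 altered libraries than in either control, and it is the 1 gene of the 41 past 2-fold in each of these 6 comparisons. With Myod1 the folds were 32.8 (26.2 to 41.6) and 40.3 (31.5 to 52.4), with Pparg 3.41 (2.65 to 4.43) and 4.19 (3.20 to 5.56), and after Setdb1 knockdown 3.95 (3.01 to 5.25) against its own control and 3.21 (2.49 to 4.18) against the other. Pdk1 did not share this order and was highest with the empty expression vector, at 14.0 FPKM. Pdha1, the catalytic subunit of pyruvate dehydrogenase that these kinases act on, was at 41.4 FPKM with Myod1 and 19.7 to 26.7 in the other 4 libraries.

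With Pparg, 2 of 41 genes were higher than with the empty expression vector, where 4.22% of all genes were, and 6 were lower, against 2.3% of all genes. Set against the empty knockdown vector, 6 were higher (5.52% of all genes) and 1 was lower (2.41%). Against both controls 2 were higher, Pdk2 and Ak1, a share close to the 3.34% of all genes, and 0 were lower, against 0.849%. Ak1 was 2.42-fold higher against each control (2.24 to 2.62 and 2.24 to 2.61). The 6 lower genes were Slc2a1, Slc16a3, Hk2, Pfkp, Eno2 and Pdk1, and none of these was past 2-fold lower than the empty knockdown vector. Slc16a3 was at 11.1 FPKM both with Pparg and with the empty knockdown vector, and Slc2a1 at 19.1 against 20.5 FPKM. Hk2, the hexokinase of muscle and fat, was at 17.2 FPKM, 4.39-fold (4.18 to 4.62) below the empty expression vector and 1.52-fold (1.43 to 1.61) below the empty knockdown vector.

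As with Myod1, the median ratio of the 41 genes turned sign with the control. With Pparg the median log2 ratio of the 41 genes was -0.31 against the empty expression vector and 0.20 against the empty knockdown vector, and 27 genes were below the first while 29 were above the second. The HIF targets did the same, with medians of -0.97 and 0.30. Genes higher with Pparg than with the empty knockdown vector were Aldoc at 27.8 against 5.83 FPKM, Gys1 at 51.9 against 14.8, Pfkl at 77.2 against 26.6 and Ldhb at 211 against 95.5, in addition to Pdk2 and Ak1. Against the empty expression vector those 4 were within 2-fold. Slc2a4, which fat cells use for insulin-driven uptake, was at 2.34 FPKM, 1.30-fold (1.01 to 1.69) and 1.42-fold (1.09 to 1.85) above the controls and within 2-fold of both.

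After Setdb1 knockdown 2 of 41 genes were higher than with the empty knockdown vector, against 9.34% of all genes, and 2 were lower, against 10.3%. In this setting both shares lie below those of all genes, which did not hold for the count with GC content subtracted, given below. The same 4 genes passed 2-fold against both controls, beside 5.8% of all genes higher and 7.56% lower. Eno1 was at 253 FPKM after knockdown and between 1205 and 2057 in the other 4 libraries, 4.76-fold (4.69 to 4.82) below its control and 8.12-fold (8.01 to 8.23) below the empty expression vector. Ldha, which converts pyruvate to lactate, was at 195 FPKM against 565 and 1191, 2.90-fold (2.84 to 2.96) and 6.12-fold (6.0 to 6.24) lower. Ldhb was at 112 FPKM against 95.5 and 124, so the share of Ldha in the pair was 63.5% (62.6% to 64.4%), the lowest of the 5 libraries, against 85.5% with the empty knockdown vector.

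The 2 genes higher after knockdown were Pdk2 and Pgam2. Pgam2 was at 16.3 FPKM against 6.05, 2.70-fold (2.10 to 3.49) higher, which is still a small part of the 983 FPKM reached with Myod1. It made up 5.20% of phosphoglycerate mutase FPKM (4.62% to 5.84%). No other muscle isozyme was past 2-fold higher: Ckm and Ckmt2 had 0 reads, Eno3 was at 20.9 FPKM against 32.9, and Pygm had 16 reads against 67, a 4.63-fold lower FPKM (2.66 to 8.57) at a level under 2 FPKM, where the added 1 keeps it within the limit. The share of Eno3 among the enolases was nevertheless 7.24% against 2.64%, with Eno1 at 253 FPKM. Several genes lay just inside the limit against their own control, among them Aldoa at 509.6 against 1011 FPKM, 1.98-fold lower (1.96 to 2.01), Slc16a3 at 5.44 against 11.1, 2.04-fold lower (1.83 to 2.27), Pfkl at 52.6 against 26.6, 1.98-fold higher (1.89 to 2.06), and Aldoc at 12.5 against 5.83, 2.15-fold higher (1.88 to 2.46). With the median of genes of like GC content subtracted, 8 of the 41 genes were past the limit in place of 4. Of all 12679 genes with a GC value, 901 were then higher and 1133 lower, in place of 1200 and 1326 of 12842. Pgam2, at 0.95 on the log2 scale, was no longer among the 8.

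Against the empty expression vector the knockdown library had 16 genes lower, beside 11% of all genes, and 2 higher, beside 8.72%. The 16 were Slc16a3, Hk2, Gpi1, Pfkl, Pfkp, Aldoa, Tpi1, Pgk1, Pgam1, Eno1, Pkm, Ldha, Pdk1, Pygm, Gys1 and Ckb, and 9 of the 41 genes were above that control. Slc16a3 was 14.5-fold (13.3 to 15.8) and Pdk1 10.9-fold (9.39 to 12.8) lower. The 2 libraries differ in vector and day as well as in Setdb1. The knockdown library had the lowest level of 18 of the 41 genes and the smallest share of its reads on the 44 genes, 1.38%, against 2.37% with the empty knockdown vector, 4.20% with the empty expression vector, 4.07% with Myod1 and 3.18% with Pparg. Summed over the 19 glycolytic enzymes its level was 3350.4 FPKM against 5921 in its own control, a log2 ratio of -0.82 that was -0.90 with the FPKM sum and -0.91 with the 75th percentile.

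Other genes of these pathways were counted from lists of textbook members. Of 34 further genes of glycolysis and pyruvate use, 19 were compared, and with Myod1 7 were higher than with the empty expression vector (Fbp2, Mpc1, Mpc2, Pdhb, Pdhx, Dlat and Gpd1), beside 14% of all genes, and 2 lower (Pck2 and Gpd2), beside 7.55%. Against both controls 6 were higher (11.9% of all genes) and 1 lower (4.42%), without Dlat and Pck2. Pck2 was at 7.77 FPKM with Myod1 and 7.75 with the empty knockdown vector. Mpc1 and Mpc2, which form the carrier that brings pyruvate into mitochondria, were at 22.7 and 10.7 FPKM with Myod1, 3.50 and 2.36 with the empty expression vector, and 6.89 and 2.73 with the empty knockdown vector. Fbp2, the fructose bisphosphatase of muscle, was at 9.26 FPKM with Myod1, 0.852 with Pparg and listed at 0 in the other 3, so it passed the filter only through the Myod1 library and had to stand higher there. With Pparg 1 of the 19 was higher against both controls, beside 3.34% of all genes: Gpd1, a glycerol phosphate dehydrogenase that feeds fat synthesis, at 74.1 FPKM against 19.6 and 14.7. Gpd1 was at 77.2 FPKM with Myod1, so the Pparg library did not stand alone. After Setdb1 knockdown Slc2a8 was higher than in its own control, beside 9.34% of all genes, and Dld and Gpd1 were lower, beside 10.3%. Against both controls Dld and Gpd1 remained lower, beside 7.56% of all genes, and 0 of the 19 were higher, beside 5.8%. Dld, a subunit of pyruvate dehydrogenase, was at 6.60 FPKM against 27.0.

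Of 22 further glycogen genes 15 were compared. With Myod1 the genes that were higher included the glycogen-binding protein Stbd1 and the muscle targeting subunit Ppp1r3a, and Pgm1 was lower, in each case against both controls (11.9% and 4.42% of all genes). By the symbols of the deposited table, Pgm1 was at 8.40 FPKM with Myod1 and Pgm2 at 138. Pgm2 was past 2-fold higher against the empty knockdown vector and not against the empty expression vector. Stbd1 was at 36.9 FPKM with Myod1 and at most 0.633 in the other 4 libraries, and Ppp1r3a was at 1.98 FPKM and at 0 elsewhere, so both passed the filter only through the Myod1 library and had to stand higher there. With Pparg 0 of the 15 passed 2-fold in either direction, beside 4.22% of all genes higher and 2.3% lower than with the empty expression vector, and 5.52% and 2.41% against the other control. After knockdown Phkg2 and the lysosomal glucosidase Gaa were higher, and Gyg, Phkb and Phka2 were lower, beside 9.34% and 10.3% of all genes, with the primer protein Gyg at 22.6 FPKM against 98.7. Against both controls all but Phkb remained, beside 5.8% of all genes higher and 7.56% lower. Of 14 further genes of creatine and adenylate metabolism 12 were compared, and with Myod1 Gamt, Ak5, Ampd3 and Adssl1 were higher than with the empty expression vector (14% of all genes) and 0 lower (7.55%). Against both controls Gamt, Ampd3 and Adssl1 remained, beside 11.9% of all genes. Ak5 was lost, and it had passed the filter only through the Myod1 library. Gamt, which makes creatine, was at 142 FPKM with Myod1 against 30.1 and 16.1 in the controls and at 1.12 FPKM after Setdb1 knockdown. Adssl1, the adenylosuccinate synthase of muscle, was at 238 FPKM with Myod1 against 16.7 and 4.69. With Pparg Ak4, Ak6 and Adssl1 were lower than with the empty expression vector, beside 2.3% of all genes, and 0 of the 12 were lower than with the empty knockdown vector, beside 2.41%. Ak4 turned direction, at 7.42 FPKM with Pparg against 17.6 and 4.45 in the 2 controls.

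Regulators of these genes were measured in the same libraries. Esrra, a nuclear receptor of oxidative metabolism, was at 133 FPKM with Myod1, 63.9 with Pparg, 40.0 with the empty expression vector, 51.1 after Setdb1 knockdown and 29.2 with the empty knockdown vector. Myc, which drives glycolytic genes in growing cells, was at 8.89 FPKM with Myod1, 10.4 with Pparg, 14.6 with the empty expression vector, 9.31 after knockdown and 23.3 with the empty knockdown vector. Epas1, the second HIF alpha subunit, was at 9.22 FPKM with Pparg, 2.67 to 3.71 with Myod1 and in the controls, and 0.672 after knockdown. Hif1a was also lowest after knockdown, at 9.33 FPKM, and Ppargc1a, a coactivator of mitochondrial genes, was at 2.76 FPKM there against 10.6 to 13.0 elsewhere. The 18 HIF targets outside glycolysis had a median log2 ratio of 0.22 between the knockdown and its own control, with 11 above 0 and 7 below, and of -1.41 against the empty expression vector.

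HIF binds a short core site, and its letters were looked up in the same windows. ACGTG, read on both strands and so also as CACGT, stood in 32.8% of the 64 windows of the 41 genes, in 34.7% of those outside the muscle isozymes, in 26.7% of those of the muscle isozymes and in 16.6% of all windows. The window of Slc16a3, the gene with the widest gap between the controls, is shown with both of its matches in capitals, at 27 and 14 bases before the start.
Slc16a3, chr11:120948817-120949066, plus strand, GRCm38.p6: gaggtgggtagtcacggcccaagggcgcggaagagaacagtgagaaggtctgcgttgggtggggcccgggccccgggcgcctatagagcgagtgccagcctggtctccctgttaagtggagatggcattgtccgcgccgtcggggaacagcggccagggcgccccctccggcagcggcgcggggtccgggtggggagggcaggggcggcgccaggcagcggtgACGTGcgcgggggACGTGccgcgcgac
The match describes these letters, and whether HIF acted there was not tested.

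Some of the 44 genes have close copies elsewhere in the genome that carried reads of their own. Eno1b, a copy of Eno1, was at 72.2 FPKM with Myod1, 82.5 with Pparg, 111 with the empty expression vector, 16.1 after Setdb1 knockdown and 81.1 with the empty knockdown vector, so it was lowest in the library where Eno1 was lowest. The pseudogenes Tpi-rs11, Pgam1-ps2, Pgk1-rs7 and Ldha-ps2 were at 0.920 to 176 FPKM. Gapdh, usually among the most abundant glycolytic RNAs, was at 143 FPKM with Myod1, 27.3 with Pparg, 55.4 with the empty expression vector, 58.7 after knockdown and 86.1 with the empty knockdown vector, far below its neighbours Tpi1 and Pgk1 in the pathway. Of 5 rows for Gapdh pseudogenes 0 reached an FPKM of 1. The part of copies in these values was not tested, so Gapdh, Eno1, Tpi1, Pgk1, Pgam1 and Ldha are uncertain to that extent. Pkm is counted as a whole gene at 706 to 1522 FPKM, which does not separate its 2 splice forms.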

How the data were processed

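Per the labels' protocols, TRIzol was used to extract total RNA, and a NEBNext Ultra RNA kit to build the libraries. The submitters' processing notes name CASAVA, HISAT2, featureCounts 1.5.0-p3 and the build GRCm38. The annotation release, strand setting and handling of shared reads are not given in the sources used here. The authors deposited 1 table of FPKM values per gene, with identifiers, symbols, positions and lengths, per the file headers. FPKM times gene length gave whole multiples of 1 step for 100% of values above 0 (within 0.01 read), and these are the reads used for intervals. The number by which the authors divided was 0.859 to 1.10 times a library's reads, so the values already hold a scaling between libraries.

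Genes that reached an FPKM of 1 in any library entered the comparison, by log2((FPKM + 1)/(FPKM + 1)), counted as changed from a size of 1. Groups of 1 library allow no test between them. Intervals are at 95%: for folds from the exact binomial interval (Clopper-Pearson) on the reads of 2 libraries, for shares of length-scaled reads on the logit scale with the Poisson variance of the reads. Where the second library had 0 reads, 3 reads stood in for it. Read recovery and the calls made from the ratios were tested on simulated data, and the intervals were not part of that test. All 44 genes may be named. Of the further pathway lists, genes past 2-fold were named, with 6 regulators and markers of at least 1 FPKM, apart from a few that are not reported here. The members, lists and named genes were chosen with earlier results of these data known. Positions of 43 of the 44 genes equal those in GENCODE M21. Start sites and promoter sequences are from RefSeq (GRCm38.p6). Alternatives were another pseudocount, filter, limit, scaling and control. GC content and the copies of enolase, mutase and dehydrogenase genes were added after the data were seen. Python 3.11.15, pandas 2.3.3, numpy 2.4.6, scipy 1.17.1 and matplotlib 3.10.9 were used.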

Additional observations from a re-analysis of the deposited data

How the results depend on the processing

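The counts of the 41 genes past 2-fold were recomputed under other settings. With a 4-fold limit they were 11 in place of 19 with Myod1 and 2 in place of 8 with Pparg. They were 1 in place of 4 after Setdb1 knockdown and 3 in place of 11 between the controls. Of all 12842 genes, 559 were past 4-fold higher and 49 lower with Myod1, and 91 and 23 with Pparg. After Setdb1 knockdown 118 and 192 were, and between the controls 18 and 18. Against both controls at 2-fold, 2 members remained with Pparg, beside 429 higher and 109 lower of all genes. For Setdb1 knockdown a pseudocount of 0.1 and values under 3 reads set to 3 reads each gave 7. The GC correction gave 8 and the other control library gave 18. Among all genes, 1931 were higher and 2096 lower with that pseudocount, and 1928 and 2087 with 3 reads. With the GC correction 901 and 1133 of 12679 were, and with the other control 1120 and 1411 of 12842. The main setting had 1200 and 1326. Among genes past 2-fold against their own control, the direction turned with the other control for Slc16a3 (1.57), Pfkl (0.93) and Pdk1 (1.16) with Myod1, and for Pfkp (0.30) and Pdk1 (0.87) with Pparg, on the log2 scale, and the difference of Slc16a3 with Pparg was lost (0.0034). The cause was not tested, apart from the levels of the controls given above. As shares of reads not divided by gene length, 40 of 53 isozyme shares moved beyond their counting interval and 13 did not. The counts of genes past 2-fold stayed within 1.5 times of their main value under the other settings run. No paired analysis was possible because each group has 1 library, and for the same reason no library could be left out of a group. At these depths 3 reads in a gene of 1 kilobase are 0.157 to 0.191 FPKM, so ratios of Ckmt2, Ampd1, Pygm and Pfkfb2 rest on few reads in some libraries.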
